A study of Homo sapiens with 4 samples.

Results

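The genes described here are the core set of polyamine synthesis and breakdown, chosen by name: ODC1, AMD1, SRM, SMS, SAT1, OAZ1, OAZ2, AZIN1, SMOX and PAOX. All 10 matched 1 identifier each among the 58051 gene identifiers of the deposited expression tables. They were measured by RNA-seq in H441, an established lung adenocarcinoma line, and HT29, an established colorectal adenocarcinoma line, both labelled wild type. Each line was grown for 7 days in RPMI-1640, a standard culture medium, or in HPLM (human plasma-like medium), whose salts and small metabolites are set close to those of human plasma. Both media carried 10% FBS and 1% P/S. Each line and medium has 3 numbered libraries, 12 in all. The comparison asks how the medium changed the messages of the pathway in each line. Whether a library stands for its own culture is not in the labels. The spread behind each p-value is therefore that between libraries and may be technical.

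Putrescine, spermidine and spermine are small, positively charged molecules that bind nucleic acids and are needed for growth. ODC1 makes putrescine from ornithine, AMD1 supplies the decarboxylated S-adenosylmethionine, and SRM and SMS use it to build spermidine and then spermine. SAT1 acetylates spermidine and spermine, which sends them to export or to the oxidase PAOX, while SMOX oxidises spermine directly. When polyamines accumulate, ribosomes shift frame on the OAZ1 and OAZ2 messages and finish antizyme, which carries ODC1 protein to the proteasome. AZIN1, an ODC1 relative without enzyme activity, binds antizyme and so spares ODC1. MYC is a known activator of ODC1 through paired CACGTG sequences (E-boxes).

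Levels below are in TPM, a read count per transcript length scaled to the same sum in each library. Over the genes of the authors' own comparisons (15405 in H441, 16126 in HT29), between 14151527 and 30581810 reads per library were recovered from the scaled counts. The totals of the 2 lines thus cover different genes. The 5 lung markers summed to 2755 to 2835 TPM in H441 RPMI and 1066 to 1152 TPM in H441 HPLM, against 2.57 to 9.21 TPM over the HT29 libraries. Within H441 the surfactant genes SFTPA1 (-1.70, adjusted p = 4.60e-05) and SFTPA2 (-1.69, adjusted p = 7.45e-05) fell in HPLM on the log2 scale. SFTPB rose (1.15, adjusted p = 0.00126) from a low mean of 2.08 TPM to 5.78 TPM, and the lung factor NKX2-1 averaged 174 TPM in RPMI and 162 TPM in HPLM (-0.10, adjusted p = 0.161). HT29 held KRT20 at 1081 TPM in RPMI and 929 in HPLM, while its CDX1 was near 0, at 0.460 and 0.0988. Of the other colonic markers in HT29, CDH17 was called lower in HPLM (log2 change of -1.24, limma adjusted p = 0.0182). CDH17 met the filter through its RPMI libraries, at 4.00, 3.25 and 2.99 TPM against 0.877, 1.11 and 0.612 TPM in HPLM. Its call therefore lends no support. CDX2 did not pass with all libraries (-0.57, adjusted p = 0.154) but fell without RPMI library 1 (-0.76, adjusted p = 0.00358). With all libraries KRT20 (-0.17, adjusted p = 0.726) and VIL1 (-0.15, adjusted p = 0.855) did not pass, nor did they without library 1. The share of TPM in mitochondrially encoded genes was 19.0 ± 2.29% in H441 HPLM against 26.3 ± 2.38% in H441 RPMI, and 33.8 ± 4.56% in HT29 HPLM against 26.1 ± 5.95% in HT29 RPMI (SD, n = 3 each). The H441 groups did not overlap. In HT29 the gap of 7.72 percentage points was 4.31 without RPMI library 1 (19.3%), and RPMI libraries 2 and 3 (30.2% and 28.8%) overlapped HPLM library 1 (29.6%). The share was not tested. A larger share lowers the TPM of all other genes, and the changes were recomputed with these genes taken out. Among markers of other cell types, 4 of 5 fibroblast markers were under 0.05 TPM in all libraries, and LUM was at 25.6 to 33.5 TPM in H441. CD14, a monocyte marker that some epithelial cells express, was at 33.4 and 35.7 TPM in HT29 RPMI libraries and 6.60 TPM in the other, against 4.49 to 6.77 TPM in HT29 HPLM. CD68, a macrophage marker, was at 5.01 and 5.46 TPM in the same 2 libraries, at 1.67 TPM in library 1 and at 1.34 to 1.68 TPM in HPLM. Both passed without library 1 (log2 changes of -2.50 and -1.33, adjusted p = 4.98e-04 and 7.62e-04), while PTPRC, the general leukocyte marker, did not (0.06, adjusted p = 0.855). The 5 leukocyte markers summed to 13.2 to 44.1 TPM in HT29 RPMI and 7.42 to 10.7 TPM in HT29 HPLM. The part of these markers in the results was not tested.

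Library 1 of HT29 in RPMI stood apart from the other 2. It also had the fewest recovered reads of all libraries, 14151527 against 22303995 and 30581810 in libraries 2 and 3. The chi-square of its read counts, divided by the degrees of freedom, was 178 against library 2 and 227 against library 3. It was 12.2 between libraries 2 and 3 and at most 13.8 between any other replicates. In this library, 5 of the 10 genes were at least 2-fold away from the mean of libraries 2 and 3 on the TPM + 1 scale. ODC1, AMD1 and SRM were 3.98, 4.29 and 2.90 times as high in TPM, where 13.6% of 16352 genes were at least 2-fold higher. SAT1 and SMOX were 5.12 and 2.57 times lower, where 11.9% of genes were at least 2-fold lower. HT29 results are therefore given with all libraries and without library 1. How this library came to differ was not tested.

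The enzymes of synthesis come first. ODC1 (GRCh38 chromosome 2, 10439968 to 10448504, minus strand) stood in the H441 HPLM libraries at 358, 343 and 351 TPM and in the H441 RPMI libraries at 174, 179 and 156 TPM. All 3 HPLM libraries lay above all 3 RPMI libraries. In bulk RNA, more message per cell and a larger share of cells with the message cannot be told apart, here and below. The mean ratio was 2.07, and the log2 change of TPM + 1 was 1.05 ± 0.07 (SE; limma adjusted p = 3.33e-04). ODC1 in HT29 measured 277, 265 and 223 TPM in HPLM and 537, 136 and 134 TPM in RPMI. The HPLM values thus lay between library 1 and the other two RPMI libraries. The log2 change was 0.24 ± 0.54 over all libraries (adjusted p = 0.822) and 0.91 ± 0.13 without RPMI library 1 (adjusted p = 0.00365).

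AMD1 (chromosome 6, 110874770 to 110895713, plus strand) stood in H441 at 81.5, 74.2 and 78.0 TPM in HPLM against 87.3, 85.6 and 83.0 in RPMI. The HPLM libraries were all slightly lower, but the log2 change of -0.13 ± 0.05 did not pass (adjusted p = 0.105). AMD1 in HT29 stood at 58.0, 58.6 and 48.6 TPM in HPLM and at 157, 39.2 and 34.2 TPM in RPMI. Library 1 was again the high one. The HT29 log2 change was -0.12 ± 0.57 over all libraries (adjusted p = 0.919) and 0.57 ± 0.13 without it (adjusted p = 0.0187).

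SRM (chromosome 1, 11054584 to 11060024, minus strand) rose in H441, from 98.2, 90.7 and 91.7 TPM in RPMI to 137, 122 and 134 TPM in HPLM. The groups did not overlap, and the log2 change was 0.48 ± 0.07 (adjusted p = 0.00299). SRM in HT29 was at 81.2, 76.4 and 66.6 TPM in HPLM and at 157, 51.6 and 56.4 TPM in RPMI. Its log2 change was -0.05 ± 0.43 over all HT29 libraries (adjusted p = 0.956) and 0.46 ± 0.12 without RPMI library 1 (adjusted p = 0.0317).

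SMS (chromosome X, 21940573 to 21994835, plus strand), the spermine-making enzyme, was among the higher messages of the set. It stood at 337, 323 and 342 TPM in H441 HPLM and at 344, 354 and 344 TPM in H441 RPMI, a log2 change of -0.06 ± 0.05 (adjusted p = 0.382). SMS in HT29 measured 279.6, 268 and 249.9 TPM in HPLM and 562, 273 and 299 TPM in RPMI. No call was made for SMS in HT29, with a log2 change of -0.43 ± 0.29 over all libraries (adjusted p = 0.416) and -0.11 ± 0.11 without library 1 (adjusted p = 0.468).

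Sequence around the starts of the synthesis genes is shown because ODC1 and SRM, both raised in H441, carry E-boxes there. RefSeq promoter windows of 300 bases (250 before a start to 50 after, GRCh38.p14) were found for 7 of the 10 genes. AZIN1 and SMOX, also raised in H441, and PAOX had no such window and were not searched. CACGTG, searched on both strands, was present for 2 of these 7, ODC1 and SRM, and for 8.77% of all 27305 genes with such windows. By window the counts were 2 of 10 and 7.26% of 35116. The ODC1 stretch lies at chr2:10447993-10448120 on the minus strand, at the start of an alternative RefSeq transcript and within an intron of 2 of the gene's 4 GENCODE 29 transcripts, and no GENCODE 29 exon overlaps it. Its E-boxes begin 29 bases before and 6 bases after that start. The SRM stretch lies at chr1:11060169-11060268 on the minus strand, upstream of the gene, with the E-box 199 bases before the start. Both are written 5′ to 3′ with CACGTG in capitals, and a match is a description, not a site of binding.
ODC1: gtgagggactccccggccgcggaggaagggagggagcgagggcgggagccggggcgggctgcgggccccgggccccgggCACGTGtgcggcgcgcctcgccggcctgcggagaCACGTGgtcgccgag
SRM: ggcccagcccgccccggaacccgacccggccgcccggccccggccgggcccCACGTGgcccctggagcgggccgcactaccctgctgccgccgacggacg
TGATGNAA, the core of the C/EBP-ATF response element, was found for none of the 7 and for 4.46% of all genes. TGACNNNGC, the core of the antioxidant response element, was found for 1 of the 7 (ODC1, on the opposite strand) and for 16.1% of all genes.

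**Figure D1:**
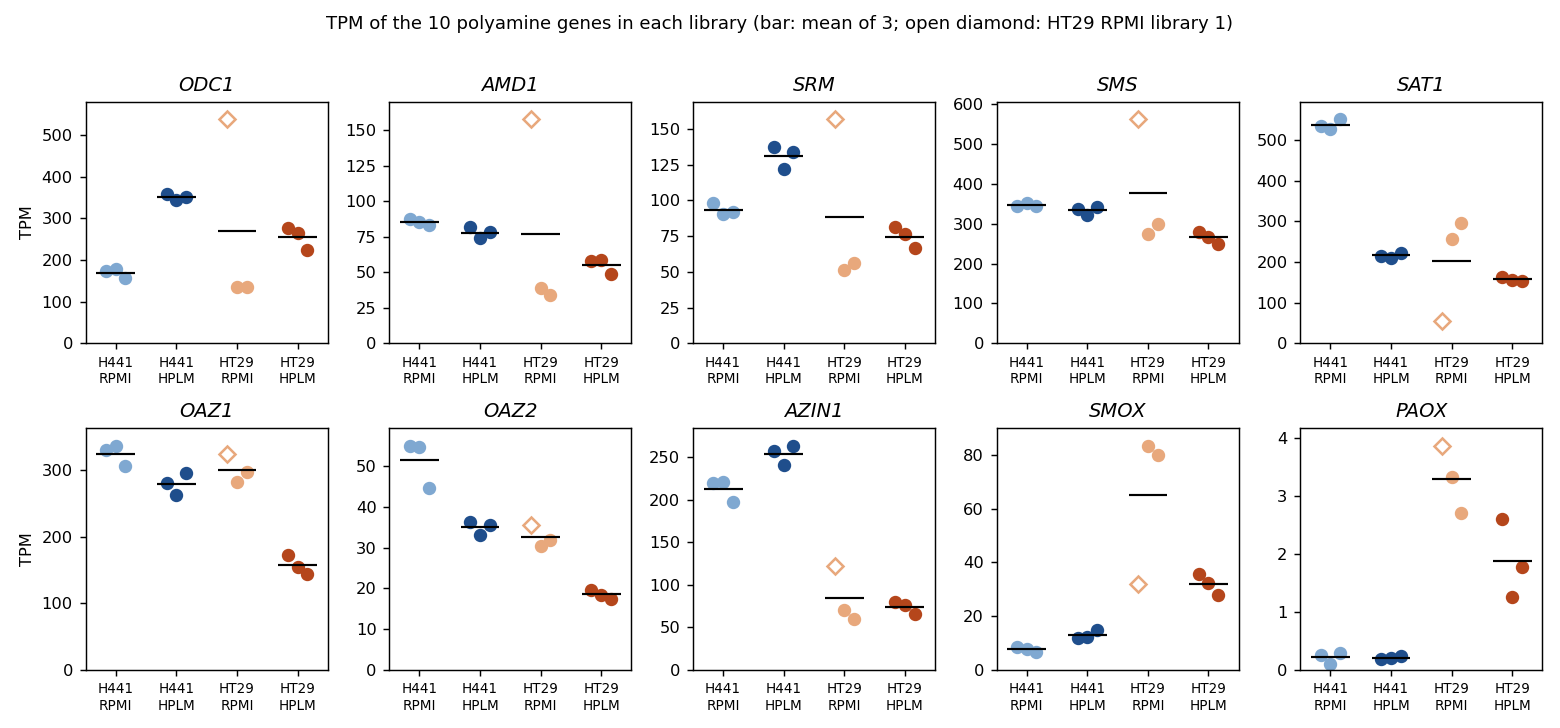
TPM of the 10 genes (vertical axes, starting at 0) in each library, by line and medium, with the mean of 3 libraries as a bar and library 1 of HT29 in RPMI as an open diamond. OAZ1 and OAZ2 were lower in HPLM in both lines, while ODC1 and SAT1 of the diamond library lay on the far side of the HPLM libraries from the other HT29 RPMI libraries.

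The control genes act on ODC1 protein. OAZ1 (chromosome 19, 2269509 to 2273490, plus strand) was the most abundant antizyme. In H441 it stood at 280.0, 263 and 295 TPM in HPLM and at 331, 337 and 306 TPM in RPMI. The groups were close but did not overlap, and the log2 change of -0.21 ± 0.07 passed narrowly (adjusted p = 0.0465). In HT29 OAZ1 was at 173, 154 and 144 TPM in HPLM and at 325, 282 and 297 TPM in RPMI. Every HT29 HPLM library lay far below every RPMI library, library 1 included. The log2 change was -0.94 ± 0.15 (adjusted p = 0.0254), and -0.88 ± 0.12 without library 1 (adjusted p = 0.00319).

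OAZ2 (chromosome 15, 64687573 to 64703281, minus strand) was several times less abundant per length than OAZ1. It fell in H441 from 55.0, 54.9 and 44.6 TPM in RPMI to 36.4, 33.1 and 35.5 TPM in HPLM, a log2 change of -0.54 ± 0.10 (adjusted p = 0.00780). OAZ2 also fell in HT29, from 35.6, 30.3 and 31.8 TPM to 19.7, 18.4 and 17.5 TPM, a log2 change of -0.78 ± 0.15 (adjusted p = 0.0354) or -0.72 ± 0.10 without library 1 (adjusted p = 0.00404). Neither line's groups overlapped. The 2 HT29 antizyme calls needed all libraries or the loss of RPMI library 1: leaving out any of the other 5 libraries gave adjusted p from 0.0823 to 0.161 for OAZ1 and from 0.102 to 0.197 for OAZ2, with changes from -1.01 to -0.88 and from -0.83 to -0.74.

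Both antizyme messages carry the frameshift site at which translation must skip a base to reach the second reading frame. The 27 bases around it are shown, in the transcript's direction, with the last codon of the first frame and the TGA stop codon in capitals. They were read from GENCODE 29 transcripts that are not annotated as coding, a retained-intron transcript of OAZ1 and a processed transcript of OAZ2. The T of the TGA is left out of 2 of 3 coding transcripts of OAZ1 and 3 of 4 of OAZ2, and none of the OAZ2 coding transcripts held the site with it. The sites shown are the same at 26 of 27 bases.
OAZ1: cggtggtgcTCCTGAtgcccctcaccc
OAZ2: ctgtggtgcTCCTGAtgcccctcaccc
Read counts over a gene do not show how often this shift occurred, so the data describe antizyme message and not antizyme protein.

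AZIN1 (chromosome 8, 102826357 to 102893864, minus strand) moved the other way from the antizymes in H441. Its levels were 257, 241 and 263 TPM in HPLM and 219, 221 and 197 TPM in RPMI, without overlap, for a log2 change of 0.26 ± 0.07 (adjusted p = 0.0285). AZIN1 was lower in HT29, at 79.9, 75.7 and 65.4 TPM in HPLM and 122, 70.8 and 59.6 TPM in RPMI. The HT29 groups overlapped, with a log2 change of -0.12 ± 0.28 over all libraries (adjusted p = 0.827) and 0.17 ± 0.14 without library 1 (adjusted p = 0.353).

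The genes of breakdown showed the widest range. SAT1 (chromosome X, 23783173 to 23786226, plus strand) was the most abundant message of the set in H441 RPMI, at 534, 527 and 550.1 TPM, and stood at 215, 211 and 223 TPM in H441 HPLM. The log2 change of -1.31 ± 0.05 was the largest in size among the 9 genes tested in H441 (adjusted p = 1.16e-04). SAT1 in HT29 measured 164, 155 and 153 TPM in HPLM and 53.8, 256 and 296 TPM in RPMI. Here library 1 was the low one. The HT29 log2 change was -0.03 ± 0.63 over all libraries (adjusted p = 0.983) and -0.80 ± 0.11 without it (adjusted p = 0.00347).

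SMOX (chromosome 20, 4120980 to 4187747, plus strand) changed in H441 from 8.32, 7.84 and 6.77 TPM in RPMI to 11.9, 12.4 and 14.9 TPM in HPLM. The groups did not overlap, and the log2 change was 0.70 ± 0.11 (adjusted p = 0.00468). SMOX was higher in HT29, at 35.6, 32.3 and 27.7 TPM in HPLM and at 31.7, 83.3 and 79.8 TPM in RPMI. RPMI library 1 fell among the HPLM libraries, and libraries 2 and 3 lay above all of them. The HT29 log2 change was -0.89 ± 0.38 over all libraries (adjusted p = 0.213) and -1.34 ± 0.13 without library 1 (adjusted p = 0.00125).

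PAOX (chromosome 10, 133379234 to 133391694, plus strand) was barely measured. In H441 it did not reach 1 TPM in any library (0.0976 to 0.292 TPM) and was left out of the H441 test. In HT29 PAOX stood at 2.60, 1.25 and 1.76 TPM in HPLM and at 3.86, 3.33 and 2.71 TPM in RPMI. The groups just failed to overlap, and the change did not pass, at -0.60 ± 0.22 over all libraries (adjusted p = 0.161) and -0.51 ± 0.21 without library 1 (adjusted p = 0.105).

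In H441, 4 of the 9 genes tested were raised (ODC1, SRM, AZIN1 and SMOX) and 3 were lowered (SAT1, OAZ1 and OAZ2), against 33.7% and 11.3% of all 16458 genes tested. The median log2 change was -0.06 over the set and 0.14 over all genes. Trimmed mean scaling moved the median of all genes to 0.02 and the all-gene split to 23.5% raised and 21.2% lowered. Under it 3 of the set were raised and 5 lowered: AMD1 at -0.27 and SMS at -0.20 joined the lowered genes, and AZIN1 at 0.11 no longer passed (adjusted p = 0.102). The OAZ1 and AZIN1 calls in H441 were also lost in 5 of 6 fits that left out a library. OAZ1 passed without RPMI library 3 (adjusted p = 0.0483), and AZIN1 without HPLM library 2 (adjusted p = 0.0407).

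In HT29 with all libraries, 0 of 10 were raised and 2 lowered (OAZ1 and OAZ2), against 2.53% and 3.58% of 16352 genes tested. At an unadjusted limma p under 0.05 the count was 3 of 10 in either direction, against 24.8% of all genes. The edgeR fit on recovered reads also called 0 raised and 2 lowered, against 5.17% and 5.65% of 16126 genes. Without RPMI library 1, 3 were raised (ODC1, AMD1 and SRM) and 4 lowered (SAT1, OAZ1, OAZ2 and SMOX), against 17.8% and 21.4% of 17273 genes. Trimmed mean scaling left these counts at 3 and 4, against 23.2% and 25.3% of 17286 genes. Both fits filtered at 1 TPM in 1 library fewer than the fit with all libraries.

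**Figure D2:**
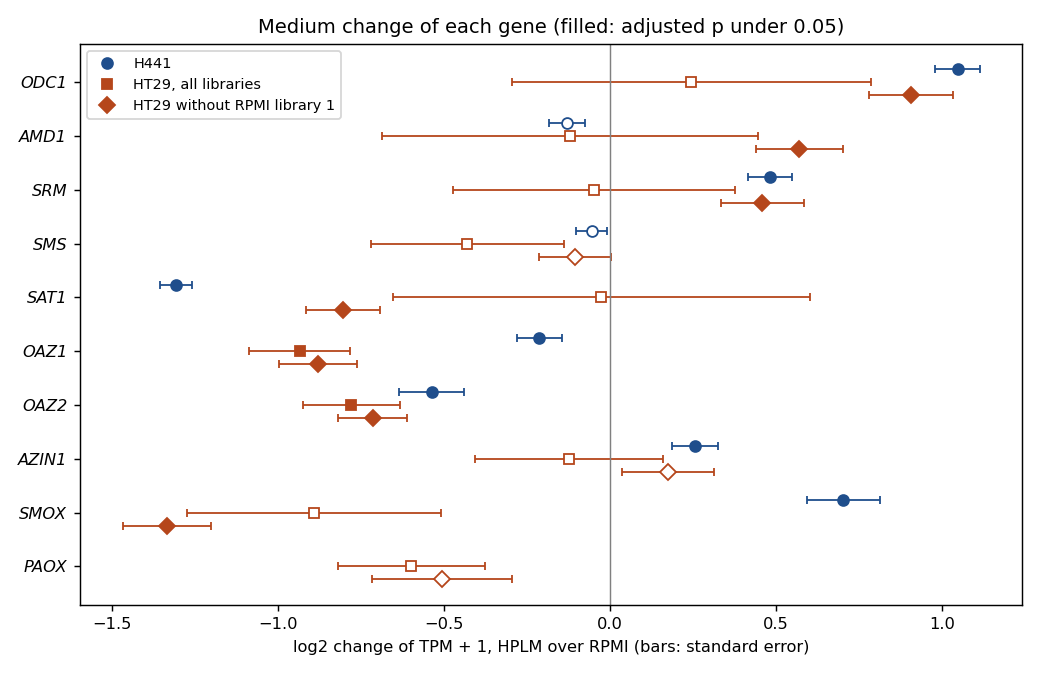
Log2 change of TPM + 1, HPLM over RPMI (horizontal axis), of each gene with its standard error, for H441 (9 genes), HT29 with all libraries, and HT29 without RPMI library 1; filled symbols passed an adjusted p of 0.05. ODC1, SRM, SAT1, OAZ1 and OAZ2 were called in the same direction in H441 and in HT29 without library 1, and SMOX in opposite directions.

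The difference between the lines in the medium effect was tested directly, as the HT29 change minus the H441 change. OAZ1 fell further in HT29, by a difference of -0.72 ± 0.15 (adjusted p = 0.0102), and passed in every setting tried, with adjusted p from 8.50e-06 to 0.0431. SMOX differed by -1.59 ± 0.43 (adjusted p = 0.0345). That call rested on the setting: with trimmed mean scaling the SMOX difference was -1.36 (adjusted p = 0.113). Leaving out a library other than HT29 RPMI library 1 also lost the call, with adjusted p from 0.0576 to 0.0925 over 11 fits. Without that library the SMOX difference was -2.04 ± 0.17 (adjusted p = 4.81e-05). The set thus had 0 genes with a higher and 2 with a lower change in HT29, against 3.00% and 11.4% of 19212 genes tested. The median difference was -0.46 over the set and -0.21 over all genes. Trimmed mean scaling moved the all-gene median to 0.0006 and the shares to 6.01% and 7.39%, with 0 members higher and 1 lower.

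Without HT29 RPMI library 1, 4 of the 10 genes differed between the lines, 2 in each direction, against 9.37% higher and 25.0% lower of 20296 genes. The all-gene median difference was -0.14 in this fit. Trimmed mean scaling gave shares of 18.4% and 22.0%, again with 2 members in each direction. AMD1 had a more positive change in HT29 (0.70 ± 0.13, adjusted p = 0.00333), and the fall of SAT1 was smaller there (0.50 ± 0.10, adjusted p = 0.00460). OAZ1 (-0.67 ± 0.12, adjusted p = 0.00317) and SMOX kept their direction. ODC1 and SRM did not pass, with differences of -0.14 (adjusted p = 0.464) and -0.02 (adjusted p = 0.911).

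A ratio of messages within a library does not depend on how the library is scaled. These ratios were chosen after the values were seen and carry no test. ODC1 over SAT1 was 1.66, 1.63 and 1.58 in the H441 HPLM libraries and 0.326, 0.339 and 0.283 in the H441 RPMI libraries. It was 1.69, 1.71 and 1.46 in HT29 HPLM, and 9.97, 0.531 and 0.454 in HT29 RPMI. The HPLM libraries of both lines therefore held more ODC1 than SAT1, 5 of the 6 RPMI libraries held less, and HT29 RPMI library 1 was the exception. ODC1 over OAZ1 averaged 1.26 ± 0.06 in H441 HPLM against 0.523 ± 0.011 in H441 RPMI (SD, n = 3). In HT29 that ratio was 1.60, 1.72 and 1.55 in HPLM and 1.65, 0.483 and 0.452 in RPMI.

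**Figure D3:**
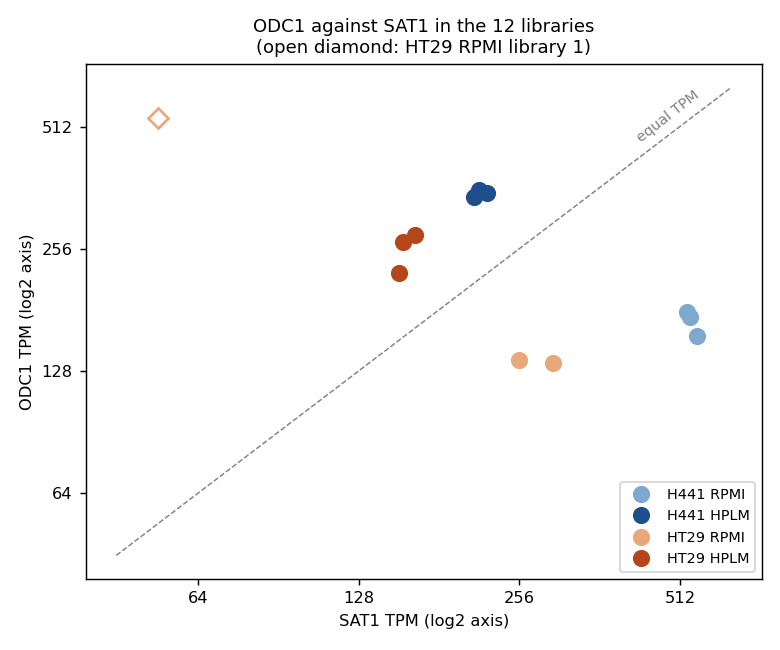
ODC1 TPM against SAT1 TPM on log2 axes, 1 point per library, with the line of equal TPM dashed. The 6 HPLM libraries lie above the line and 5 RPMI libraries below it, and HT29 RPMI library 1 (open diamond) is at 537 TPM of ODC1 and 53.8 TPM of SAT1.

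Ranked by mean TPM in H441 RPMI, SAT1 (537 ± 11.8) led, followed by SMS (347 ± 5.48), OAZ1 (324 ± 16.3), AZIN1 (212 ± 13.7) and ODC1 (169.7 ± 12.2; SD, n = 3 each). SRM (93.5 ± 4.06), AMD1 (85.3 ± 2.17), OAZ2 (51.5 ± 5.99), SMOX (7.65 ± 0.792) and PAOX (0.215 ± 0.103) followed. In H441 HPLM the order opened with ODC1 (351 ± 7.54) and SMS (334 ± 9.95), then OAZ1 (279.5 ± 16.1), AZIN1 (254 ± 11.4) and SAT1 (216 ± 6.21). In HT29 HPLM, SMS (266 ± 15.0) and ODC1 (255 ± 28.4) overlapped at the top, and OAZ1 (157 ± 14.8) and SAT1 (157 ± 5.71) overlapped behind them. The lines have separate deposited tables, so levels are set side by side without a test. AZIN1 was at 197 to 263 TPM in H441 and 59.6 to 122 TPM in HT29, and SMOX was higher in HT29 (27.7 to 83.3 TPM) than in H441 (6.77 to 14.9 TPM).

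Genes whose log2 TPM followed that of ODC1 most closely over the 12 libraries, after each line was centred, were POLR1E, a subunit of RNA polymerase I (r = 0.996), LRPPRC, a mitochondrial RNA-binding protein (r = 0.993), and ADSL, an enzyme of purine synthesis (r = 0.993), among 9702 genes. Without HT29 RPMI library 1 they ranked 1, 21 and 23. For SAT1 they were AC023157.3, PRSS8 and SCRN2 (r = 0.975, 0.973 and 0.973), which ranked 44, 49 and 51 without that library. The libraries share line, medium and scaling, so these values describe likeness only.

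The counts of related genes below stand beside all-gene shares of 33.7% raised and 11.3% lowered in H441 (23.5% and 21.2% with trimmed mean scaling). The HT29 shares were 2.53% and 3.58%, or 17.8% and 21.4% without library 1. Of the transcription factors known to act on ODC1 or SAT1, 5 of 7 tested were raised in H441 and 0 lowered, against 33.7% and 11.3% of all genes, with a median log2 change of 0.72 against 0.14 for all genes (0.58 against 0.02 with trimmed mean scaling). MYC stood at 680.0, 639.7 and 700.5 TPM in H441 HPLM and at 203, 214 and 209 TPM in H441 RPMI, a log2 change of 1.68 ± 0.05 (adjusted p = 8.61e-05). MAX, the partner of MYC at E-boxes, rose by 0.72 ± 0.05 (adjusted p = 4.17e-04), and MXD1, which competes for MAX, by 0.88 ± 0.05 (adjusted p = 2.84e-04). In HT29 none of the 7 was called with all libraries (1 was raised with trimmed mean scaling). MYC there was at 124, 120.2 and 103 TPM in HPLM and at 359, 83.7 and 65.2 TPM in RPMI. MYC was thus high in the same RPMI library as ODC1, where 13.6% of 16352 genes were at least 2-fold higher. There MYC stood at 4.82 times the mean of the other 2. Its HT29 log2 change was -0.12 ± 0.62 over all libraries (adjusted p = 0.929) and 0.64 ± 0.15 without library 1 (adjusted p = 0.0200), when 3 of the 7 were raised and 1 lowered, against 17.8% and 21.4% of all genes. MXD1 was lowered in that fit (-0.75 ± 0.12, adjusted p = 0.00522). The difference between the lines for MYC was -1.80 ± 0.69 with all libraries (limma adjusted p = 0.113). Without library 1 the MYC difference was -1.05 ± 0.15 (adjusted p = 9.41e-04), and that of ODC1 was -0.14 (adjusted p = 0.464).

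For ornithine supply and its rival uses, 1 of 4 genes tested in H441 was raised and 2 were lowered (1 and 3 with trimmed mean scaling), against 33.7% and 11.3% of all genes. ARG2, the mitochondrial arginase that yields ornithine, rose from 7.20, 5.15 and 5.61 TPM in H441 RPMI to 35.2, 33.8 and 35.4 TPM in HPLM, a log2 change of 2.37 ± 0.11 (adjusted p = 1.71e-04). OAT, which converts ornithine onward, and ALDH18A1, which makes a precursor of proline and ornithine, changed by -0.21 ± 0.05 (adjusted p = 0.0205) and -0.24 ± 0.05 (adjusted p = 0.0144). In HT29 ARG2 was at 4.14, 3.65 and 3.05 TPM in HPLM and at 4.04, 10.7 and 12.1 TPM in RPMI. Its log2 change was -0.998 ± 0.374 over all libraries (adjusted p = 0.166) and -1.43 ± 0.14 without library 1 (adjusted p = 0.00116). The difference between the lines for ARG2 was -3.37 ± 0.42 (adjusted p = 9.94e-04). ALDH18A1 fell by 0.98 in HT29 (adjusted p = 0.0266), the 1 of 4 genes called there, and 3 of 4 were lowered without library 1.

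The genes that supply S-adenosylmethionine and salvage methylthioadenosine, the by-product of SRM and SMS, gave 3 of 7 raised and 2 lowered in H441 (3 and 3 with trimmed mean scaling), against 33.7% and 11.3% of all genes. ADI1 (0.86 ± 0.05, adjusted p = 3.33e-04) and ENOPH1 (0.59 ± 0.05, adjusted p = 6.63e-04) belong to the salvage route, and MAT2B (0.39 ± 0.07, adjusted p = 0.00634) is the regulatory partner of the synthetase MAT2A, which itself fell (-0.27 ± 0.05, adjusted p = 0.00652). None of these 7 was called in HT29 with all libraries. Without library 1, 2 were raised and 1 lowered, ADI1 by 1.04 ± 0.11 (adjusted p = 0.00155) and MAT2B by 0.39 ± 0.12 (adjusted p = 0.0425) being the raised ones.

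Of the polyamine transport genes, 1 of 5 tested in H441 was raised and 1 lowered (1 and 2 with trimmed mean scaling), with 33.7% and 11.3% called over all genes. SLC3A2, the heavy chain of several amino acid transporters, rose by 0.96 ± 0.06 (adjusted p = 3.24e-04), and SLC12A8 was lowered by -0.30 ± 0.05 (adjusted p = 0.00480). In HT29 0 of 8 were raised and 1 lowered (2 with trimmed mean scaling), the efflux carrier SLC47A1 at -0.997 ± 0.135 (adjusted p = 0.0159). SLC47A1 passed the filter through its RPMI libraries alone, at 1.84, 1.80 and 2.01 TPM against 0.483, 0.392 and 0.455 TPM in HPLM, so its call supports no count. Without library 1, 4 of the 8 were lowered, against 21.4% of all genes. With trimmed mean scaling as well, 7 were lowered, against 25.3% of all genes. Both counts include SLC47A1 and its unsupported call. The hypusine genes, whose products attach spermidine to the translation factor EIF5A and finish the modification, gave 1 of 3 raised in H441 (1 more lowered with trimmed mean scaling), DOHH at 0.65 ± 0.10 (adjusted p = 0.00452), and 0 of 4 called in HT29 (1 lowered without library 1). The remaining antizyme-system, acetyltransferase and amine oxidase genes gave 0 of 4 called in H441 (2 lowered with trimmed mean scaling) and 0 of 5 in HT29, where 2 were raised and 1 lowered without library 1 (2 and 0 with trimmed mean scaling as well).

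**Figure D4:**
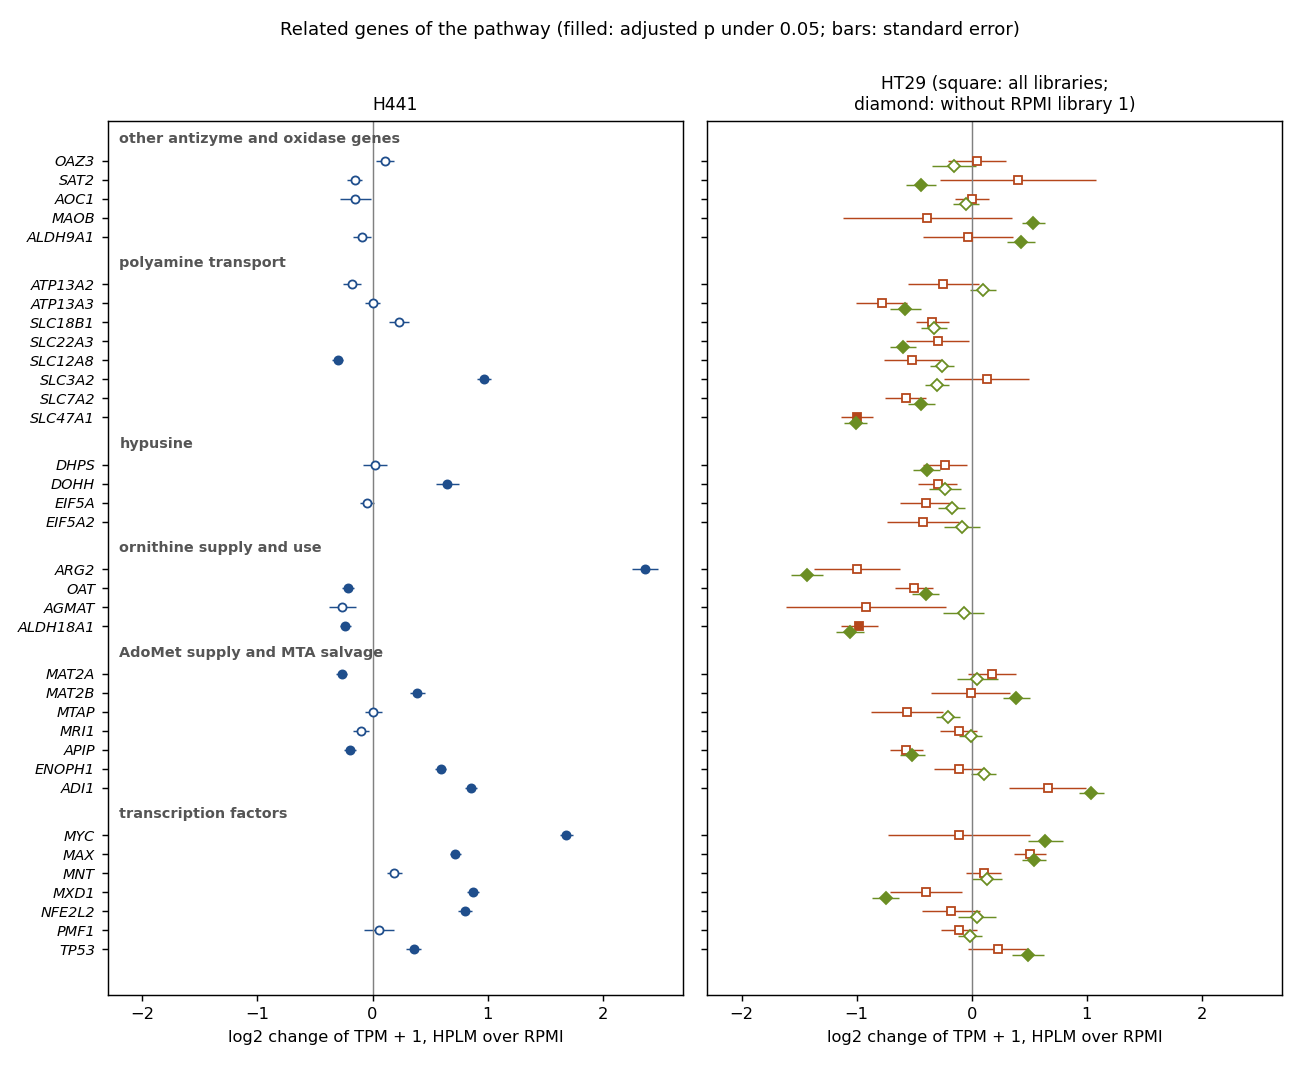
Log2 change of TPM + 1, HPLM over RPMI (horizontal axes), with standard errors, of the related genes that passed the filter, in H441 (left) and HT29 (right, squares with all libraries and diamonds without RPMI library 1); filled symbols passed an adjusted p of 0.05. ARG2 at 2.37 and MYC at 1.68 are the 2 changes farthest to the right in H441.

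The authors' deposited tables of their own HPLM against RPMI comparisons list 9 of the 10 genes for H441 and all 10 for HT29. For H441 the authors' deposited table gives log2 changes of 0.89 for ODC1, 0.32 for SRM, -1.47 for SAT1, -0.37 for OAZ1, -0.71 for OAZ2, 0.10 for AZIN1 and 0.62 for SMOX. It also gives -0.29 for AMD1 and -0.22 for SMS, the 2 genes that trimmed mean scaling added here. For HT29 the authors' deposited table gives -0.86 for OAZ1 (adjusted p = 1.37e-15) and -0.73 for OAZ2 (adjusted p = 5.62e-11), and values of 0.07 for ODC1 (adjusted p = 0.947), -0.33 for SAT1 (adjusted p = 0.759) and -0.99 for SMOX (adjusted p = 0.0832).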

How the data were processed

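Total RNA was extracted from each culture and libraries were made with the TruSeq RNA kit v2, per the labels' protocols. This kit does not mark strand, which leaves sense and antisense transcripts of a locus indistinguishable. The submitters' processing notes name Trimmomatic 0.36, STAR 2.5.2b, Subread 1.5.2, DESeq2 and GRCh38. How reads that map to several places were counted is not given in the sources used here, and several of these genes have pseudogenes. The deposited files hold, per line, TPM for every gene and a table of the authors' own comparison with log2 fold changes, p-values and a signal per library (counts divided by size factors). Multiplying by the size factor returned whole reads (within 0.01) for 100.0% of values.

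The medium effect was tested with limma 3.58.1 (R 4.3.3) on log2(TPM + 1) within each line, over genes at 1 TPM or more in at least 3 libraries, two-sided, with Benjamini-Hochberg adjustment over all genes tested and a threshold of 0.05. Limma fits that left out a library asked for 1 library fewer in this filter, so more genes were tested in them. The pseudocount makes fold changes of low genes smaller. The difference between lines was fitted over all 12 libraries. The alternatives were a pseudocount of 0.1, no filter, trimmed mean scaling, TPM without mitochondrially encoded genes, the library number as a block, edgeR 4.0.16 (quasi-likelihood test) on the recovered reads, and leaving out each library. In H441 edgeR called 4378 genes raised and 4193 lowered, and in HT29 834 and 911. The limma fits were tested on simulated data with independent noise for each gene. Such data hold no library that stands apart across many genes, so they do not test that case. Trimmed mean scaling and edgeR without HT29 RPMI library 1 were added after seeing the data.

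The members and the related lists were chosen with earlier results of these data known. All members are named whatever their values. Of each related list the text names at most 3 genes, those called with the smallest adjusted p in either line, and MYC and MAT2A. The genes most like ODC1 and SAT1 are the 3 with the highest Pearson r among genes of at least 5 TPM on average. Gene positions are from GENCODE 29. No protein comparison was made.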

Additional observations from a re-analysis of the deposited data

Results flagged for a closer look

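The difference between the lines in the medium change (HT29 minus H441, log2 of TPM + 1, limma, adjusted over all genes tested) passed for 2 of the 10 polyamine genes. OAZ1 fell further in HT29, by -0.72 (adjusted p = 0.0102), with all 3 HPLM libraries below all 3 RPMI libraries in each line. SMOX differed by -1.59 (adjusted p = 0.0345), with all HPLM libraries above all RPMI libraries in H441 and overlapping groups in HT29. Among the related genes named, the difference was -3.37 for ARG2 (adjusted p = 9.94e-04), -0.95 for DOHH (adjusted p = 0.00864), -1.27 for MXD1 (adjusted p = 0.0319) and -0.74 for ALDH18A1 (adjusted p = 0.0109). SLC47A1 was also called (-0.98, adjusted p = 6.33e-04), but it was listed at 0 in 5 of 6 H441 libraries and reached 1 TPM only in HT29 RPMI, so the value is in effect its HT29 change and shows no difference between the lines. The ALDH18A1 and MXD1 differences no longer passed with trimmed mean scaling (adjusted p = 0.117 and 0.140). Nor did that of SMOX, which was also lost when any library other than HT29 RPMI library 1 was left out. No explanation was weighed for these differences.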

How the results depend on the processing

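The H441 calls of ODC1, SRM, SAT1, OAZ2 and SMOX passed in every alternative run. The count of polyamine genes lowered in H441 was 3 as reported and 5 with trimmed mean scaling, without mitochondrially encoded genes, and with edgeR. It was 2 with a pseudocount of 0.1 and 2 with no filter, where OAZ1 no longer passed (adjusted p = 0.0521 and 0.0970). Over all genes the H441 count lowered was 1858, and 3497, 3355 and 4193 under these 3 settings, and 1233 to 1666 with a library left out.

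In HT29 the counts leaned on RPMI library 1. Leaving out a library gave 0 to 3 members raised, 0 to 4 lowered, and over all genes 0 to 3074 raised and 0 to 3693 lowered, the highest in each case without RPMI library 1. The all-gene counts of 414 raised and 585 lowered became 850 raised with trimmed mean scaling, 987 raised without mitochondrially encoded genes, and 834 raised and 911 lowered with edgeR. Without library 1, trimmed mean scaling gave 3 members raised and 4 lowered, against 4014 and 4378 genes (23.2% and 25.3%). In that case edgeR gave 4 and 5, against 4930 and 4984 genes (30.6% and 30.9%).

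Same-numbered libraries' deviations correlated at -0.03, 0.02 and -0.00 in H441 and 0.05, -0.10 and 0.17 in HT29. Between libraries of different numbers the values ran from -0.03 to 0.04 in H441 and from -0.17 to 0.12 in HT29. With 3 libraries per group, these values do not settle whether the numbers pair the samples. With the number as a block, HT29 had 0 genes called in either direction and 0 members lowered, and H441 had 3 members raised and 2 lowered. The block left 1 member lowered in the difference between lines, with 322 genes raised and 1334 lowered.

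In the difference between lines, 1 member (OAZ1) was lowered with no filter, with trimmed mean scaling and without mitochondrially encoded genes, and 0 to 2 were raised and 1 to 2 lowered with a library left out. Without HT29 RPMI library 1, trimmed mean scaling and edgeR each gave 2 raised. The all-gene counts of 577 raised and 2196 lowered became 1156 and 1421 with trimmed mean scaling, 1178 and 1165 without mitochondrially encoded genes, 911 and 1426 with edgeR, and 354 to 1901 and 1319 to 5064 with a library left out. Without library 1 they were 3732 and 4467 with trimmed mean scaling and 3955 and 3816 with edgeR.

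Directions of changes that were not called turned in HT29. With a library left out the log2 change ran from -0.091 to 0.906 for ODC1, -0.52 to 0.57 for AMD1, -0.33 to 0.46 for SRM, -0.80 to 0.41 for SAT1, -0.33 to 0.17 for AZIN1, -0.30 to 0.35 for SLC3A2, -0.25 to 0.39 for MAT2B, -0.24 to 0.10 for ENOPH1 and -0.58 to 0.64 for MYC. With trimmed mean scaling it was 0.052 for SRM, 0.072 for SAT1 and 0.090 for MAT2B, which edgeR gave as 0.018. Without mitochondrially encoded genes it was 0.036 for AMD1, 0.11 for SRM, 0.13 for SAT1, 0.033 for AZIN1, 0.15 for MAT2B, 0.048 for ENOPH1 and 0.043 for MYC. Without RPMI library 1, trimmed mean scaling and edgeR gave 0.58 and 0.61 for AMD1, 0.46 and 0.48 for SRM, 0.18 and 0.20 for AZIN1, -0.30 and -0.28 for SLC3A2, 0.39 and 0.42 for MAT2B, 0.11 and 0.13 for ENOPH1, and 0.65 and 0.67 for MYC. The difference between lines turned to 0.019 and 0.058 for ODC1, 0.13 and 0.17 for SRM, 0.11 and 0.14 for SMS and 0.077 and 0.12 for AZIN1 in these fits. For OAZ2 it was 0.0017 with trimmed mean scaling, 0.039 without mitochondrially encoded genes, 0.0068 with edgeR, and 0.0029 with edgeR without library 1, and for AMD1 it ran from -0.39 to 0.70 with a library left out. The cause of these shifts was not tested. Counts lost when a library is left out come with fewer libraries. PAOX was too low in H441 for a statement on its change.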
